A study of Mus musculus with 2 samples.

Results

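The genes described here are known as oncofetal or liver tumour genes. They were followed in single cells from liver tumours of mice, by library and by the kind of cell that carried their RNA. The 10 genes (Afp, Gpc3, H19, Igf2, Ly6d, Spink1, Tspan8, Mdk, Akr1c18 and Tff3) are 10 of the 32285 features counted, and all were present in both count tables. They were listed by name and chosen from their measured levels in hepatocytes of the libraries, with results of these data in view. Their levels in hepatocytes are therefore a description, and no test was made of them. Both groups of mice received diethylnitrosamine (DEN), a liver carcinogen, at 25 mg/kg into the peritoneum at 2 weeks of age. Both were kept on a NASH diet, which brings on fatty and inflamed liver, from week 8 to week 26, after which liver tumours were taken for single-cell RNA sequencing. One group was Crtc2+/+ and the other Crtc2-/-, that is, homozygous for a mutation of Crtc2, a coactivator of the transcription factor CREB. Each genotype gave 1 library. How many animals and tumours went into it, and how the Crtc2 allele was made, the labels do not say. A difference between the libraries therefore cannot be told apart from a difference between animals or between tumours, and it has no replicate check.

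Oncofetal genes are active in the fetal liver, are silenced after birth and return in regenerating liver and in hepatocellular tumours. The silencing of Afp, H19 and Gpc3 after birth depends in mice on the repressor Zhx2 and, for Afp, on Zbtb20. Tumour cells need not carry the whole set, since hepatocytes, bile duct cells and the progenitor-like cells between them use different members of it.

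Crtc2 itself was counted in both libraries. It stood at 7.96 CPM (UMIs, or counted RNA molecules, scaled to a fixed total; 615 UMIs in 582 of 9349 cells) in the library labelled Crtc2+/+ and at 5.43 CPM (400 UMIs in 384 of 8901 cells) in the library labelled Crtc2-/-. Reads come from the 3' end of the RNA, so a count outside the altered part of the gene would not check the label, and the libraries are named by their labels throughout. Depth was similar, with medians of 7115 and 6560 UMIs per kept cell, and the libraries shared 29 barcodes. Values below are given for the library labelled Crtc2+/+ first.

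Cells were sorted by fixed counts of marker UMIs, called gates here. The hepatocyte gate asks for at least 20 UMIs of Alb, Apoa1 and Ttr together, and it was divided by the keratins Krt8 and Krt18 at 4 UMIs. Keratin-high hepatocyte-gate cells numbered 182 and 160 (1.95% and 1.80% of kept cells), and keratin-low ones 88 and 79. In the keratin-high gate 9 of 10 hepatocyte markers in the library labelled Crtc2+/+ and 10 of 10 in the library labelled Crtc2-/- had UMIs, and they summed to 15248 and 34492 CPM. Cyp2e1, an enzyme of mature hepatocytes around the central vein, had 0 UMIs in both hepatocyte gates of the library labelled Crtc2+/+. Bile duct markers summed to 37101 and 7218 CPM in the same keratin-high cells, of which Spp1 (osteopontin), a gene also used by injured hepatocytes, made up 36008 and 6886 CPM. The summed Alb, Apoa1 and Ttr UMIs of keratin-high cells had medians of 42 and 163.5, so those of the library labelled Crtc2+/+ lay nearer to the limit, and a limit of 50 UMIs kept 75 and 131 of them. A gate of this kind is a range, not a type: 36 and 19 cells had 20 to 24 UMIs of these genes and 29 and 28 had 15 to 19. Likewise 10 and 7 hepatocyte-gate cells stood at exactly 4 keratin UMIs, and 16 and 10 at 3.

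The gates differed in depth and in other cells' RNA, and the part of either in the results was not tested. Median depth was 10246 and 15861 UMIs in the keratin-high gate but 2013 and 2965 in the keratin-low gate. Median mitochondrial share was 4.48% and 1.76% in keratin-high cells and 6.39% and 1.78% in keratin-low cells. Macrophage markers summed to 730 and 253 CPM in keratin-high but to 7898 and 3360 CPM in keratin-low cells. Of the keratin-high cells 42 and 44 (23.1% and 27.5%) had a UMI of Ptprc, the pan-leukocyte gene. Of stellate cell and fibroblast markers, 6 of 7 were at 0 in each hepatocyte gate, among them Dcn, Col1a1 and Col3a1. The list summed to 0.479 and 43.7 CPM in keratin-high cells, all of it Reln, against 14.7 and 14.2 CPM over all kept cells.

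The biliary gate (at least 2 UMIs of Krt19 and Epcam together) held 228 and 110 cells, and its name went against the data. Ptprc had a UMI in 76.3% and 83.6% of its cells, and Flt3, a gene of dendritic cells and blood progenitors, in 55.7% and 52.7%. Epcam was seen in 99.6% and 98.2% of them but Krt19, the keratin of bile ducts, in only 18.9% and 10.9%. Most cells in the gate thus carried Epcam beside leukocyte RNA. The cells of the gate that were also keratin-high hepatocyte-gate cells, 42 and 20, are described separately.

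Among secreted members, Afp encodes alpha-fetoprotein, the albumin of the fetus and a serum marker of liver cancer. In the keratin-high gate it stood at 9.57 CPM (95% interval 5.85 to 14.8) in the library labelled Crtc2+/+ and at 275 CPM (255 to 295) in the library labelled Crtc2-/-. All intervals are exact and cover counting error only. A UMI of Afp was seen in 15 of 182 and in 114 of 160 cells. The largest count in a cell was 5 UMIs in the first library and 40 in the second, where that cell held 5.31% of the gate's Afp. Ratios between the libraries are given as log2 after adding 10 CPM to each side, library labelled Crtc2-/- over the other, and for Afp this was 3.86.

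Mdk encodes midkine, a heparin-binding growth factor of the embryo that is secreted by many carcinomas. It went the other way, at 195 CPM (177 to 215) in 88 of 182 keratin-high cells against 7.28 CPM (4.45 to 11.2) in 10 of 160, a log2 ratio of -3.57. Spink1, a secreted inhibitor of trypsin that also marks liver tumours, was at 579 CPM (547 to 613) and 213 CPM (196 to 231), a log2 ratio of -1.40, and was the member seen in most cells of the library labelled Crtc2+/+, at 137 of 182 against 106 of 160. For Tff3, a trefoil peptide of mucosal surfaces, the levels were 19.1 CPM (13.7 to 26.1) in 18 cells and 60.8 CPM (51.9 to 70.8) in 40 cells. One cell held 25% of the first library's Tff3 in this gate and another 18% of the second's.

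Of the members on the cell surface, Gpc3 encodes glypican 3, a heparan sulfate proteoglycan used to diagnose hepatocellular carcinoma. Its levels were 66.0 CPM (55.5 to 78.0) in 55 of 182 cells and 189 CPM (173 to 206) in 64 of 160. One cell held 19.4% of all Gpc3 UMIs of this gate in the library labelled Crtc2-/-, and shares of cells differed less than levels did. Tspan8, a tetraspanin of epithelial membranes, was at 357 CPM (332 to 384) in 27 cells and at 911 CPM (876 to 948) in 109. Ly6d, a GPI-anchored Ly6 protein better known from lymphoid progenitors, was at 169 CPM (152 to 188) in 75 cells and 2868 CPM (2805 to 2933) in 133. That was 16.9 times as much (interval 15.2 to 18.9). Its largest count in a cell was 35 UMIs in the first library and 378 in the second.

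Akr1c18 encodes the 20-alpha-hydroxysteroid dehydrogenase that inactivates progesterone, and it had the widest ratio among the members. It was at 3.83 CPM (1.65 to 7.54), or 8 UMIs in 7 of 182 cells, and at 591 CPM (563 to 621), or 1624 UMIs in 143 of 160 cells, a log2 ratio of 5.44. Near-identical AKR1C genes lie beside it, and the labels do not say how reads were shared among them.

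The imprinted pair H19 and Igf2, neighbours on chromosome 7, was nearly undetected. Igf2, the fetal insulin-like growth factor, had 0 UMIs in every hepatocyte and biliary gate of both libraries, which allows up to 1.44 and 1.09 CPM in keratin-high cells by the limit of 3 UMIs. Its 4 UMIs in each library all lay in cells with at least 2 UMIs of Pecam1, Cdh5 and Kdr, genes of endothelial cells of which Pecam1 is also used by leukocytes. H19, a long noncoding RNA, had 0 UMIs in keratin-high cells of the library labelled Crtc2+/+ and 32 UMIs in those of the other, all in 1 cell. That cell held 25256 UMIs and 31 of Gpc3, 35 of Ly6d, 29 of Tspan8, 12 of Afp, 13 of Spink1, 11 of Akr1c18 and 2 of Mdk, with no Ptprc UMI. It carried 8 of the 10 members at once. H19 was seen in 11 cells of that library in all, and 9 of them passed the count of Pecam1, Cdh5 and Kdr.

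**Figure D1:**
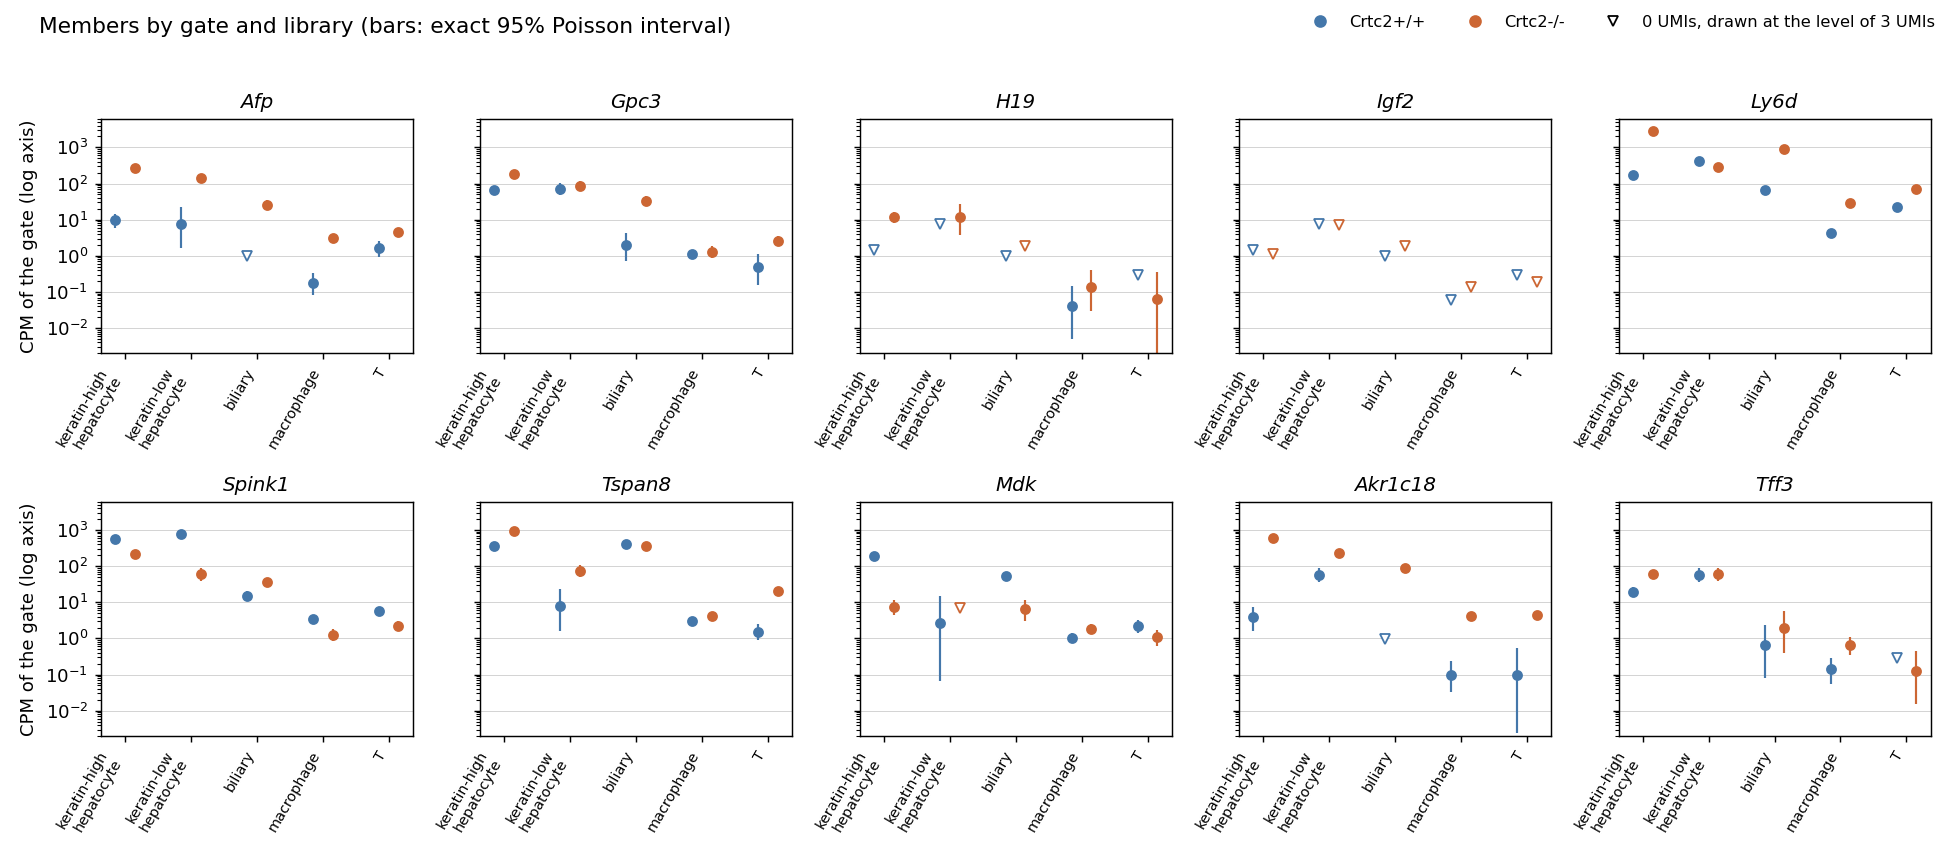
CPM of each member on a log axis in 5 gates, with the libraries labelled Crtc2+/+ (blue) and Crtc2-/- (orange), exact 95% Poisson intervals as bars, and open triangles at the level of 3 UMIs where a gate had 0. In the keratin-high hepatocyte gate Afp, Ly6d and Akr1c18 stand far higher in orange, Mdk and Spink1 stand higher in blue, and the macrophage and T gates lie below it for the 8 members other than H19 and Igf2.

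In the keratin-high gate 9 of the 9 members that reached 20 UMIs in the libraries together differed by at least 2-fold, 7 of them higher and 2 lower in the library labelled Crtc2-/-. Over all 11878 genes with that many UMIs the share was 9.35% (4.37% higher and 4.98% lower), and the median log2 ratio was -0.08. The members were picked with this contrast known, so nothing is read from their count. H19 left the count without its 1 cell. The log2 ratios of Gpc3 (lowest 0.79) and Tff3 (lowest 0.63) were each under 1 in 2 of 15 alternatives. Those of Afp, Ly6d and Akr1c18 were never under 3.18. The macrophage gate between the same libraries had 1 of 8 members past 2-fold (Ly6d, higher at 4.19 and 28.2 CPM), against 4.63% of all genes (2.88% higher, 1.74% lower). The T gate had 2 of 7 (Ly6d and Tspan8, both higher), against 1.35% of all genes (0.909% higher, 0.44% lower). The other members were too low in these gates to pass 2-fold with the CPM added, so the counts cannot show whether they differed. Without the added CPM, macrophage-gate ratios were 17.6 for Afp, 42.8 for Akr1c18 and 4.65 for Tff3, but 0.365 for Spink1. T-gate ratios were 44.9 for Akr1c18, 5.29 for Gpc3 and 2.80 for Afp, but 0.385 for Spink1 and 0.488 for Mdk. In these gates of the library labelled Crtc2+/+ Akr1c18 had only 5 and 1 UMIs.

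In keratin-low cells 4 of 7 members with enough UMIs were past 2-fold between the libraries, against 18.8% of 6229 genes (12.2% higher, 6.61% lower). Afp (7.78 and 143 CPM), Tspan8 (7.78 and 75.2 CPM) and Akr1c18 (57.1 and 230 CPM) were higher in the library labelled Crtc2-/-. Spink1 was lower there, at 781 and 61.1 CPM, a log2 ratio of -3.47. Ly6d was at 410 and 289 CPM (log2 ratio -0.49), so the wide gap of Ly6d in keratin-high cells was not seen in keratin-low ones. Gpc3 was at 72.6 and 87.0 CPM and Tff3 at 57.1 and 58.8 CPM, with overlapping counting intervals. Among cells of at least 5000 UMIs fewer members reached 20 UMIs and the count was 1. There Afp was at a log2 ratio of 1.65 and Spink1 at -2.79, but Akr1c18 at 0.51 and Tspan8 at 0.67.

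Within each library the keratin-high and keratin-low cells were then set against each other, which compares cells that share 1 library and its free RNA. In the library labelled Crtc2+/+ 5 of 8 members were past 2-fold, against 25.5% of 10494 genes (17.8% higher, 7.77% lower, median log2 ratio 0.30). Tspan8 (log2 ratio 4.37) and Mdk (4.03) were higher in keratin-high cells, and Ly6d (-1.23), Tff3 (-1.20) and Akr1c18 (-2.28) were lower. The other library had 5 of 9 past 2-fold, against 23% of 10696 genes (11.8% higher, 11.2% lower, median 0.12), and all 5 were higher in keratin-high cells. They were Ly6d (3.27), Tspan8 (3.43), Spink1 (1.65), Akr1c18 (1.32) and Gpc3 (1.04). Ly6d and Akr1c18 thus lay on opposite sides in the libraries, while Tspan8 was on the same side in both. In the library labelled Crtc2+/+ the keratin-low level of Tspan8 was 3 UMIs in 1 cell. Of its 746 keratin-high UMIs there, 714 lay in cells that also passed the biliary gate, which no keratin-low cell passed. Keratin-high cells outside the biliary gate had 21.2 CPM of Tspan8, against 7.78 CPM in keratin-low cells. Both counts of members past 2-fold moved with the processing. The first fell from 5 to 3 with keratin-high set at 4 UMIs per 10000, and the second to 2 with the mean of per-cell values, where Gpc3 was at -0.86. Akr1c18 in the library labelled Crtc2-/- was under 2-fold in 5 of 15 alternatives (lowest 0.25), and Ly6d in the other library in 5 of 15 (nearest to 0 at -0.38).

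**Figure D2:**
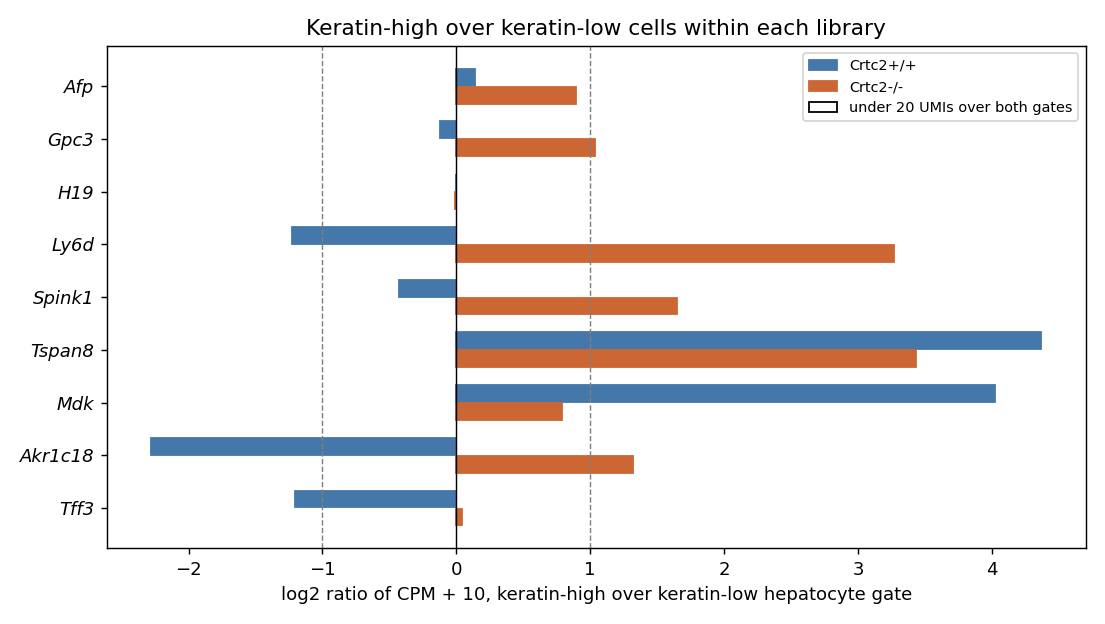
Log2 ratio of CPM + 10 in keratin-high over keratin-low hepatocyte-gate cells for 9 members (Igf2 had no UMI), with the library labelled Crtc2+/+ in blue and Crtc2-/- in orange, and dashed lines at 2-fold. Bars of Ly6d and Akr1c18 point in opposite directions, while those of Tspan8 both pass 2-fold to the right.

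Macrophage-gate (4940 and 1662 cells) and T-gate cells (1926 and 2608) served as a contrast for free RNA in the droplets. They were assumed to lack these members except for Ly6d. Cells that also passed the hepatocyte gate were left in. The macrophage gate held 10 and 4 keratin-high and 12 and 11 keratin-low cells. The T gate held 6 and 7 keratin-high cells and 1 keratin-low cell per library. One cell held 33.1% of the macrophage gate's Spink1 in the library labelled Crtc2+/+, so these levels need not be of free RNA alone. In macrophages the members other than Ly6d were at 0 to 3.45 CPM and 0 to 4.29 CPM. In the T gate Tspan8 was at 1.54 and 20.1 CPM, with 16 UMIs in 7 cells and 315 in 21. For Spink1 the keratin-high level was 168 and 169 times the macrophage level, beside 128 and 106 times for Alb, Apoa1 and Ttr together. Mdk was 187 times the macrophage level in the library labelled Crtc2+/+ but only 3.90 times in the other. In that other library Mdk had 20 UMIs in 10 hepatocyte-gate cells and 40 UMIs in 39 macrophage-gate cells. Cells that passed the count of Pecam1, Cdh5 and Kdr held 53 Mdk UMIs there. The macrophage level of Mdk was 1.04 CPM in the first library and 1.86 CPM in the other. Whether macrophage-gate Mdk was free RNA was not tested, so 3.90 need not be a ratio to free RNA. Afp was 53.0 and 86.6 times, and Akr1c18 38.2 and 138 times, the macrophage level. Afp in the library labelled Crtc2+/+ was only 5.84 times its T-gate level of 1.64 CPM. For the 7 members other than Ly6d, H19 and Igf2, shares of macrophage-gate cells with a UMI were 0.10% to 1.28% and 0.54% to 2.77%, against 3.85% to 75.3% and 6.25% to 89.4% of keratin-high cells. Levels in macrophage-gate cells were thus low beside keratin-high levels for most members. Free RNA's part in the low Afp and Akr1c18 of the library labelled Crtc2+/+ and in the low Mdk of the other was not tested.

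Ly6d had large sources outside hepatocytes. Hepatocyte-gate cells held 7.12% and 30.0% of all its UMIs (7189 and 26686 in the libraries). Cells with B cell genes held 47.3% and 40.3%, and cells with Siglech, a gene of plasmacytoid dendritic cells, 45.3% and 29.5%. Cells that passed the count of Pecam1, Cdh5 and Kdr held 54.4% and 43.4%. Each cell is counted under every gate it passes, so these shares overlap. Cells other than hepatocytes thus held most Ly6d RNA in each library. Tspan8 differed, since in the library labelled Crtc2+/+ 94.2% of its UMIs lay in biliary-gate cells and 56.3% in hepatocyte-gate cells, and in the other 19.97% and 90.2%.

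Tspan8 divided the keratin-high cells of the libraries differently. In the library labelled Crtc2+/+ the 42 keratin-high cells that also passed the biliary gate had 1226 CPM of Tspan8 (25 cells), and the 140 that did not had 21.2 CPM (2 cells, of which 1 held 31 of the 32 UMIs). The reverse held for Spink1, at 56.7 and 781 CPM, and for Ly6d, at 46.4 and 217 CPM. Gpc3 had 0 UMIs in the 42 cells and 138 UMIs in the 140, at least 17.8-fold lower by the limit of 3 UMIs. Mdk did not divide that way, at 211 and 189 CPM. Of 7 members with enough UMIs 6 were past 2-fold between these cells, 1 higher and 5 lower, against 13.3% of all genes (6.56% higher, 6.7% lower).

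Tspan8 in the library labelled Crtc2-/- was not confined to biliary-gate cells. It was at 1386 CPM in the 20 keratin-high cells of the biliary gate (18 cells) and at 842 CPM in the other 140 (91 cells), a log2 ratio of 0.71. Afp (88.6 and 302 CPM), Gpc3 (77.2 and 206 CPM), Akr1c18 (292 and 635 CPM) and Tff3 (8.58 and 68.4 CPM) were lower in the biliary-gate cells. With H19, 5 of 9 members were past 2-fold, all lower, against 14% of all genes (7% higher, 7.01% lower). Ly6d (2044 and 2989 CPM) and Spink1 (160 and 220 CPM) were not past 2-fold there. Against the whole biliary gate, which is mostly Ptprc-positive, 5 of 7 members were lower than in keratin-high cells in the first library (19% of all genes past 2-fold, 9.07% higher and 9.9% lower) and 8 of 9 in the second (20.8% of all genes, 10.4% higher and 10.4% lower).

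The Tspan8-positive cells of the libraries also differed in what else they carried. The 27 in the library labelled Crtc2+/+ had Krt19 in 22 cells, Epcam in 25 and Sox9 in 24, genes of bile duct cells, and Spink1 in only 4 and Gpc3 in 1. Apoa1, a hepatocyte apolipoprotein, was seen in 8 of the 27, while Alb and Ttr were seen in all 27. The 109 in the library labelled Crtc2-/- had Krt19 in 11 and Epcam in 30, and Apoa1 in 102. Akr1c18 was seen in 96 of them, Ly6d in 95, Afp in 83, Spink1 in 72 and Gpc3 in 50. Median depth of these cells was 13384 and 17876 UMIs.

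**Figure D3:**
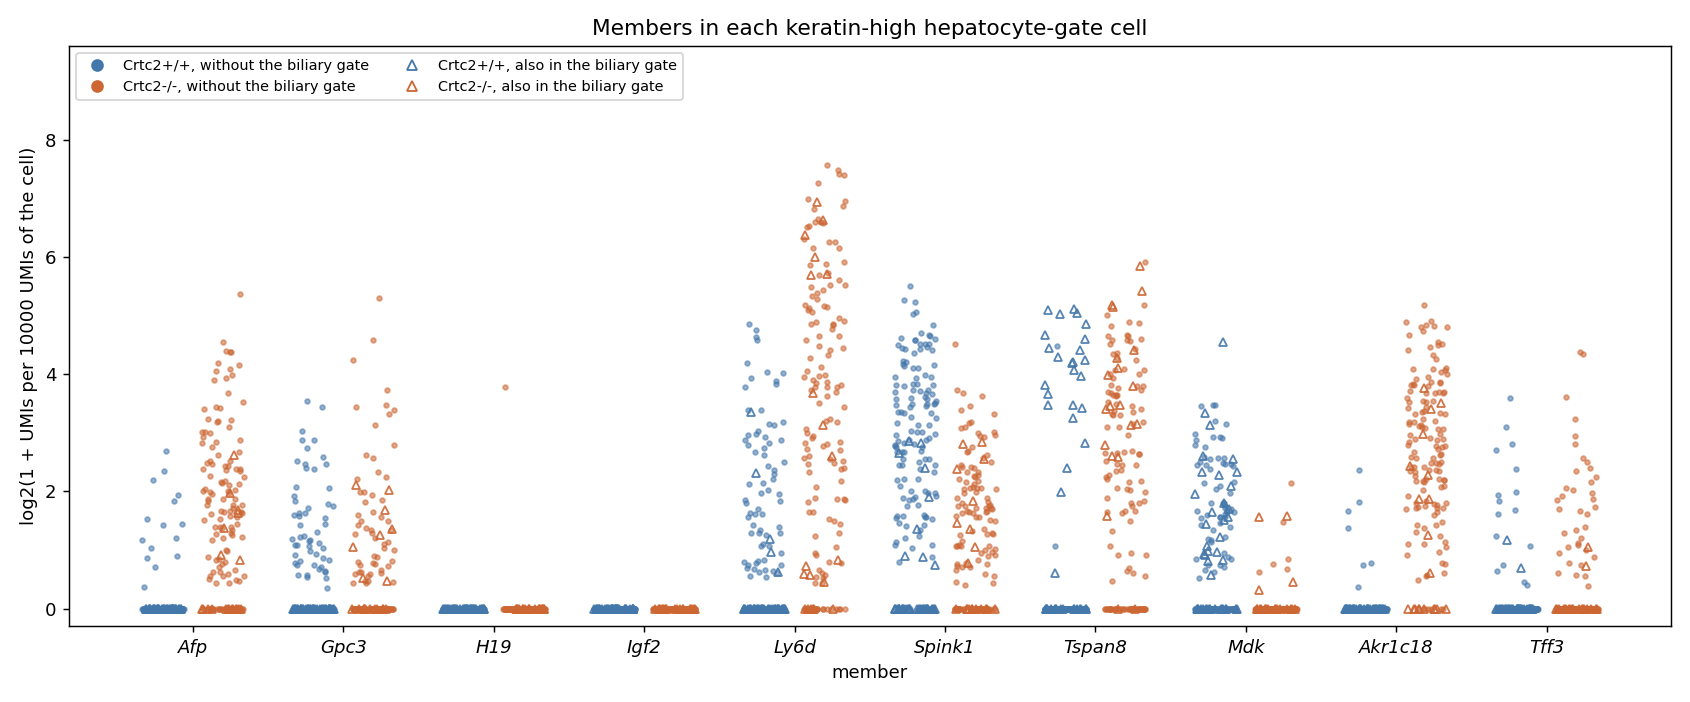
Each point is a keratin-high hepatocyte-gate cell, with log2(1 + UMIs per 10000 UMIs of the cell) for each member, triangles for cells that also pass the biliary gate, and the libraries labelled Crtc2+/+ in blue and Crtc2-/- in orange. Tspan8 in blue is carried almost wholly by triangles (25 of 27 cells), in orange mostly by other cells (91 of 109), and H19 stands in 1 orange cell.

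Co-detection followed the same division. Spink1, in the library labelled Crtc2+/+, was seen in 52 of 55 Gpc3-positive keratin-high cells, 68 of 75 Ly6d-positive ones and 14 of 15 Afp-positive ones, but in 4 of 27 Tspan8-positive ones, against 133 of 155 cells without Tspan8. Thinned to 1000 UMIs per cell, to hold depth equal, it was seen in 0 of 21 Tspan8-positive cells and 69 of 161 others, but Gpc3-positive cells (4 of 10) no longer stood out from others (65 of 172). Mdk was seen in 16 of the 27. Tff3 and Mdk were not seen together in any cell of this gate: 0 of 18 Tff3-positive cells had Mdk, against 88 of 164 others. The same pair had 0 cells in the library labelled Crtc2-/-, but Mdk was seen in only 10 cells there.

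Akr1c18 in the library labelled Crtc2-/- was seen in 143 of 160 keratin-high cells, so cells with any other member would often hold it. It was seen in 111 of 114 Afp-positive cells (32 of 46 others), 40 of 40 Tff3-positive cells (103 of 120 others) and 125 of 133 Ly6d-positive cells (18 of 27 others). Tspan8 was seen in 96 of 143 Akr1c18-positive cells and 13 of 17 others. Tff3-positive cells had Tspan8 less often, in 18 of 40 against 91 of 120 others. Deeper cells show more members of any kind. Thinned alike, Akr1c18 was seen in 17 of 27 Afp-positive cells and 53 of 133 others, in 41 of 87 Ly6d-positive cells and 29 of 73 others, and in 4 of 12 Tff3-positive cells and 66 of 148 others. All 3 of these pairs of shares had overlapping counting intervals. Tspan8 was still seen in 0 of 12 Tff3-positive cells and 63 of 148 others.

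**Figure D4:**
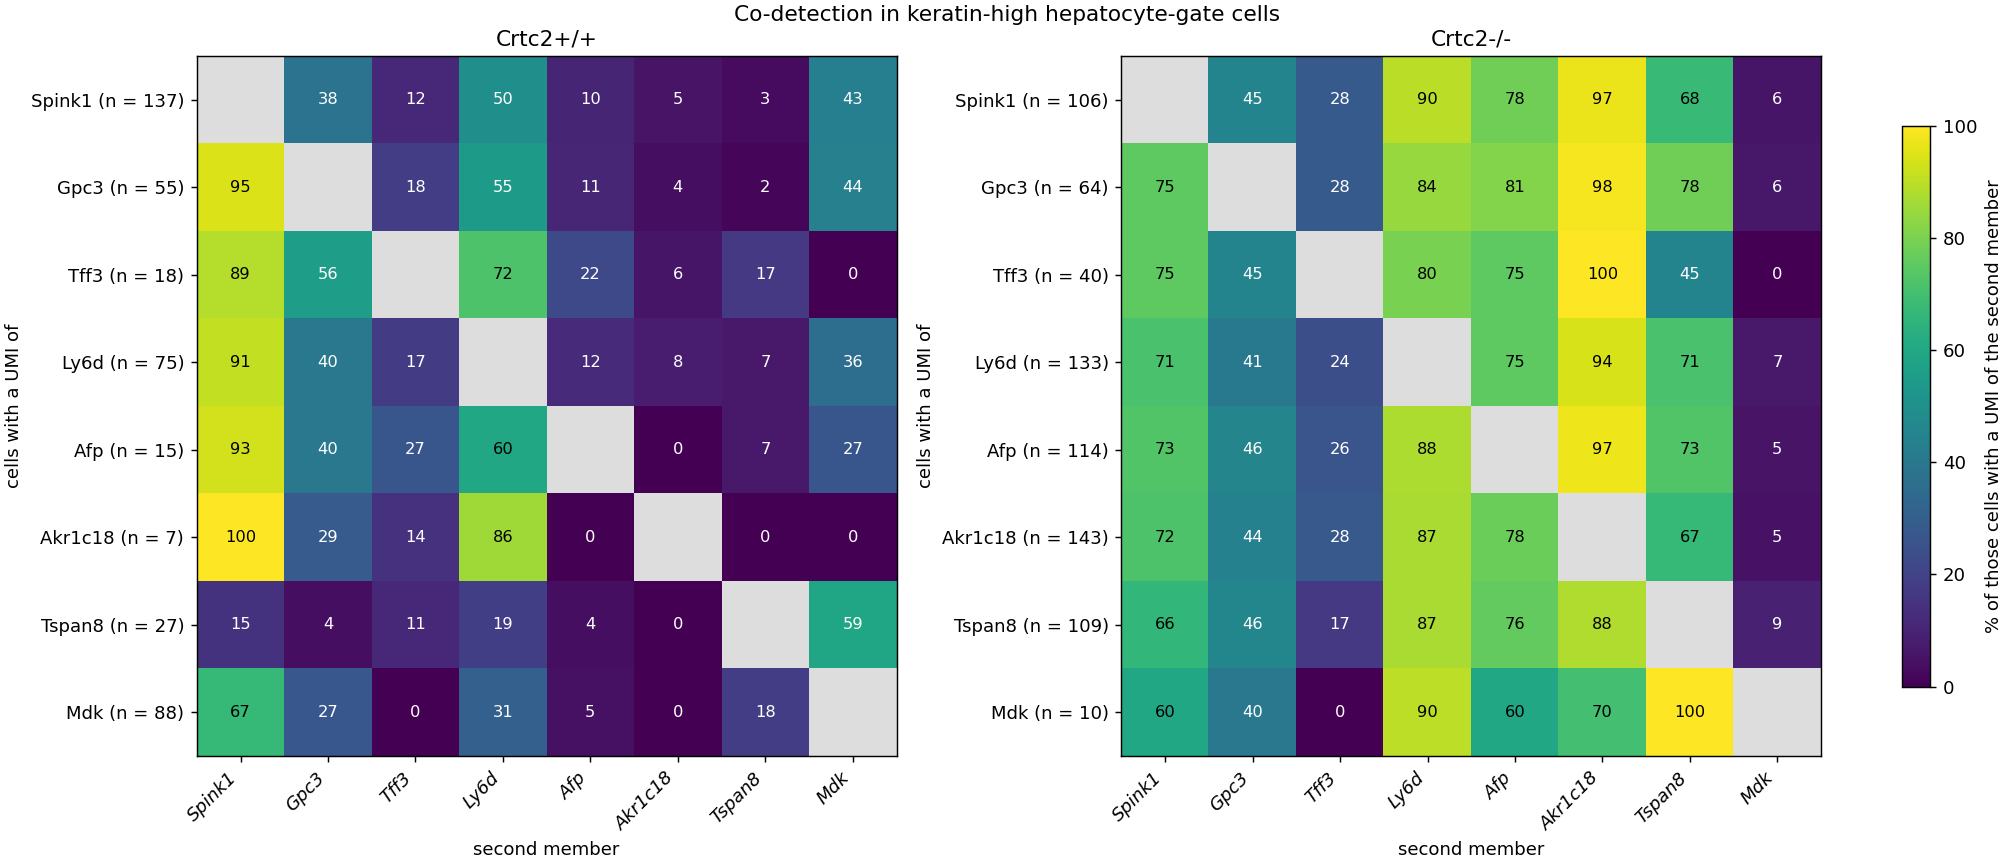
Share (%) of keratin-high cells with a UMI of the member in the row (n beside its name) that also had a UMI of the member in the column, for 8 members in each library. The Tspan8 row is dark for Spink1 and Gpc3 in the library labelled Crtc2+/+ and bright for Ly6d, Afp and Akr1c18 in the other, and the Tff3 and Mdk pair is at 0 in both.

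Members were also counted per cell, as a description, since they were chosen with the libraries' levels known. UMIs of at least 2 members were seen in 143 of 182 keratin-high cells (78.6%, 95% interval 71.9 to 84.3) and 152 of 160 (95%, 90.4 to 97.8). At least 4 were seen in 25 cells (13.7%) and 126 cells (78.8%), and the largest number in a cell was 5 and 8. Thinned to 1000 UMIs, at least 2 members were seen in 31 of 182 cells (17.0%, 11.9 to 23.3) and 101 of 160 (63.1%, 55.2 to 70.6). Keratin-low cells, thinned alike, had 26 of 70 (37.1%) and 24 of 73 (32.9%), leaving out 18 and 6 shallower cells. In the macrophage gate at least 2 members were seen in 21 of 4940 cells (0.43%) and 40 of 1662 (2.41%), at median depths of 8922 and 11192 UMIs, and in the T gate in 0.36% and 0.84%. Of all kept cells with at least 4 members, 33 of 34 and 140 of 148 were hepatocyte-gate cells.

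**Figure D5:**
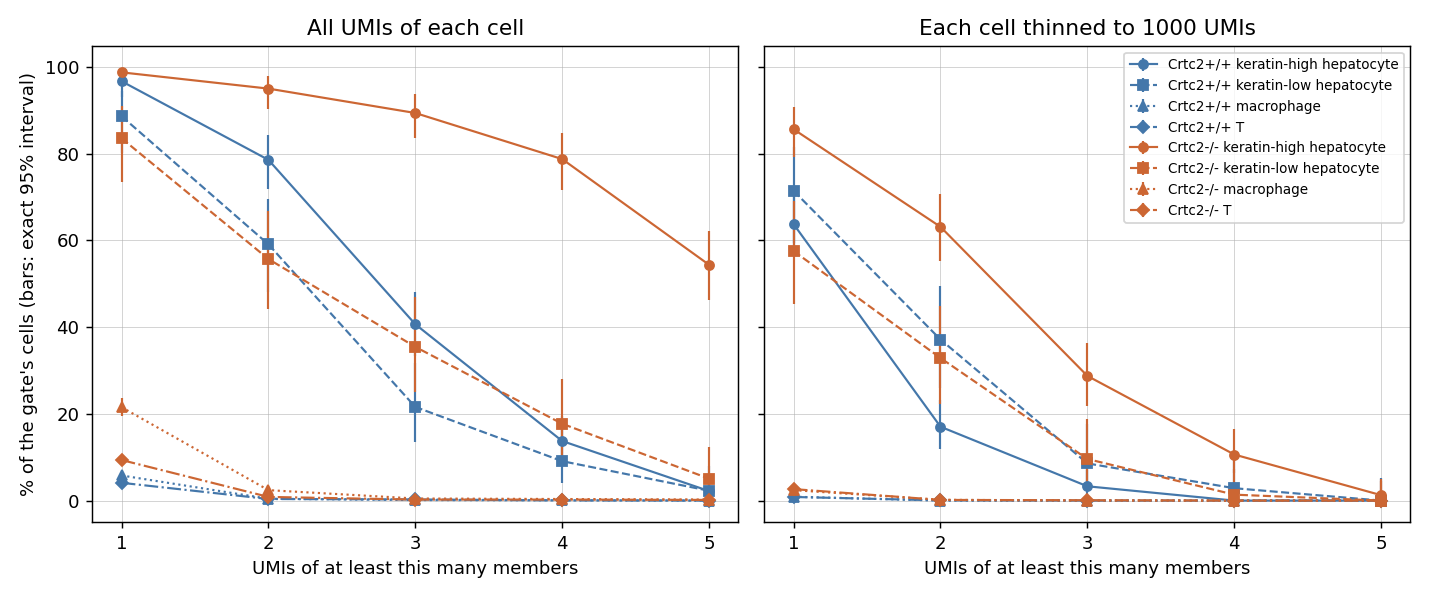
Share (%) of cells with UMIs of at least 1 to 5 members, with exact 95% intervals, unthinned (left) and thinned to 1000 UMIs per cell (right), for keratin-high, keratin-low, macrophage and T gates of the libraries labelled Crtc2+/+ (blue) and Crtc2-/- (orange). Keratin-high cells of the library labelled Crtc2-/- lie above all other gates in both panels, at 95% and 63.1% for 2 members.

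Promoters of 5 of the 10 members were found in RefSeq's windows for build GRCm38.p6, each from 250 bases before to 50 after a transcription start. Those of Afp, Akr1c18 and Tspan8 are shown because these members were often seen in the same cells of the library labelled Crtc2-/-. Each was common there, and Akr1c18 was no more frequent in keratin-high cells with Tspan8 (96 of 109) than in those without it (47 of 51). They run 5′ to 3′ on the gene's strand, with capitals for exact matches to any motif searched, from chr5:90490464-90490763 (+), chr13:4150597-4150896 (-) and chr10:115817034-115817333 (+).
Afp: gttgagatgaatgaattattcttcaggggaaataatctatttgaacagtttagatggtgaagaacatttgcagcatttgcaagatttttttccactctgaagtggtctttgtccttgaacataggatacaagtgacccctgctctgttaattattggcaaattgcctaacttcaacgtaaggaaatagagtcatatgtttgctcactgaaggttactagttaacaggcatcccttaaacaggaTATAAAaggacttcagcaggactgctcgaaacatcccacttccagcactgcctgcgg
Akr1c18: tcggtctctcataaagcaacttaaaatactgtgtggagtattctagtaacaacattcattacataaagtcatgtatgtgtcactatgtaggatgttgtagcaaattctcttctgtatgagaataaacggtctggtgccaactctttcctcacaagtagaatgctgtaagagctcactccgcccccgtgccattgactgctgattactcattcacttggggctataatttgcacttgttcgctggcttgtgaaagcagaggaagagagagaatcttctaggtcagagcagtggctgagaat
Tspan8: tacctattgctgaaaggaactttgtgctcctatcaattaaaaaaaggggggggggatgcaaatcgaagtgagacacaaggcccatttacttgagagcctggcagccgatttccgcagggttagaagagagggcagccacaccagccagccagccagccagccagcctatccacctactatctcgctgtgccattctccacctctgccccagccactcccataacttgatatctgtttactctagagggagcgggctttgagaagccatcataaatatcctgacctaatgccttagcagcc

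The motifs searched on both strands were the TATA box TATAAA, the full cAMP response element TGACGTCA bound by CREB, and its part TGACG (held within the full element). Afp had a TATA box 7 bases before the RefSeq start on which its window is set, which lies upstream of the GENCODE start given below. Akr1c18, Tspan8 and Gpc3 had no match to any of them, and Afp had none to either cAMP element. Igf2, the other member with windows, had a TGACG match in 2 of them. Among all 32851 windows of that length 13.6% held TATAAA, 20.8% TGACG and 1.79% TGACGTCA. A match is a description of the letters only, and a window without one says nothing of the factor.

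The repressors of the fetal program were present in both libraries. In keratin-high cells Zhx2 was at 54.1 and 43.7 CPM (log2 ratio -0.26) and Zbtb20 at 1353 and 911 CPM (-0.57). Of the 13 factors listed for Afp, H19 or Gpc3, 2 were higher and 1 lower by 2-fold in the library labelled Crtc2-/-, with a median log2 ratio of -0.03. For this and the lists below, the share over all 11878 genes in keratin-high cells was 9.35% (4.37% higher and 4.98% lower). The lists were chosen with earlier results of these data known, so nothing is read from their counts. Hnf4a (87.6 and 218 CPM) and Cebpb (159 and 362 CPM), factors of hepatocytes, were higher. Foxa3 was at 61.7 and 106 CPM.

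Other oncofetal and imprinted genes gave no common direction. Of 17, 9 had enough UMIs, with 3 higher and 2 lower and a median of -0.45. Meg3, the maternally expressed noncoding RNA of the Dlk1 locus, had 424 UMIs in 42 keratin-high cells of the library labelled Crtc2-/- and 0 in the other, at least 108-fold higher by the limit of 3 UMIs. Rian of the same locus had 75 UMIs in 25 cells against 0, at least 19-fold higher, while Dlk1 had 0 UMIs in both. Hmga2, a chromatin protein of embryonic cells, was at 57.9 CPM in 11 cells against 1 UMI, with a counting interval of the ratio from 21.4 to 4808. Igf2bp3, an oncofetal RNA-binding protein, was lower, at 36.8 and 8.37 CPM (log2 ratio -1.35).

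Of 12 genes of the IGF axis with enough UMIs, 3 were higher (Igfbp1, Igfbp2 and Igfbp3) and 2 were lower (Igf1 and Igfbp7), with a median of 0.19. Igfbp1, a secreted IGF-binding protein of hepatocytes, was at 40.2 and 1265 CPM (log2 ratio 4.67), Igfbp3 at 33.0 and 113 CPM and Igfbp2 at 0 and 36.4 CPM, at least 25.4-fold higher. One cell held 97.1% of Igfbp3 in the library labelled Crtc2+/+. Igf1 was lower (72.7 and 23.7 CPM), and the receptors Igf1r (44.0 and 29.1 CPM) and Igf2r (54.6 and 46.2 CPM) were not past 2-fold.

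Relatives of the other members differed by family. In the AKR1C family 3 of 6 were higher, 0 were lower and the median was 1.32, with Akr1c12 at 39 and 278 UMIs (log2 ratio 1.96), Akr1c6 at 103 and 410 CPM, Akr1c13 at 60.8 and 228 CPM and Akr1c19 at 79.9 and 157 CPM. Among glypicans and syndecan 2, 1 of 3 was higher (Gpc6 at 19.6 and 100 CPM), with Gpc4 at 68.4 and 132 CPM and Sdc2 at 128 and 109 CPM. With 10 CPM added, none of 9 measured midkine partners was past 2-fold, against 9.35% of all genes, with a median of 0.47. Sdc4, a syndecan, was the widest on that scale, at 317 and 633 CPM. Sdc3 came next, at 4.31 and 13.8 CPM, a gap that the added 10 CPM narrows. Itga6 (44.5 and 74.3 CPM) and Sdc1 (52.6 and 80.8 CPM) followed. Of 10 trefoil, Ly6 and tetraspanin relatives 0 were higher and 1 was lower, near the share of 9.35% over all genes. The lower one was Tspan3 at 91.9 and 12.4 CPM, and Ly6c1, Tspan15 and Ly6e had log2 ratios of -0.99, -0.73 and -0.63.

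Other liver tumour and progenitor genes divided, with 2 of 16 higher and 4 lower. Spp1 (36008 and 6886 CPM) and Gsta1 (356 and 119 CPM) were lower, and Hmox1 (21.1 and 83.4 CPM) and Lcn2 (577 and 1554 CPM) higher. Mature hepatocyte genes had 7 of 16 higher and 2 lower, with a median of 0.82. Hal, which breaks down histidine, had 0 and 144 UMIs, at least 36.5-fold higher, Cps1 of the urea cycle was at 43.1 and 157 CPM and Pck1 of gluconeogenesis at 26.8 and 89.2 CPM, while Cyp7b1 was lower, at 51.7 and 11.7 CPM. Of 5 Wnt targets with enough UMIs only Cyp2e1 was past 2-fold, and 1 of its 10 positive cells held 53.0% of its UMIs. Znrf3, Rnf43 and Oat had log2 ratios of -0.65, 0.39 and 0.28.

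Genes most like each member were ranked over hepatocyte-gate and biliary-gate cells together (456 and 329 cells) by Pearson's r of log values within each library, taking the lower of both. These cells share a library and differ in depth, and many in the biliary gate were Ptprc-positive, so r is a description across cells. Among 10452 genes, Tspan8 was most like Thsd4 (0.65), Ank3 (0.62) and Dsp (0.57). Spink1 was most like Rarres2 (0.54), Hsd17b13 (0.54) and Hp (0.52), and Gpc3 most like Cfb (0.45), Kng1 (0.45) and C4bp (0.43). Ly6d was most like Rbp4 (0.44), the member Spink1 (0.37) and Tubb4b (0.36). For Akr1c18 the genes were Orm1 (0.37), Apoc2 (0.35) and Apoc4 (0.34), and for Tff3 Apoc4 (0.34) and Cpb2 (0.31). Afp, H19, Igf2 and Mdk had too few positive cells in 1 or both libraries, under 20.

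In build GRCm38 (GENCODE annotation) the members lie apart except for the imprinted pair. Afp is at chr5:90490737-90508907, Mdk at chr2:91929805-91932297, Tspan8 at chr10:115816832-115849893, Akr1c18 at chr13:4132615-4150654 and Ly6d at chr15:74762056-74763620. Tff3 is at chr17:31125306-31129646, Gpc3 at chrX:52272426-52613950, H19 at chr7:142575529-142578143 and Igf2 at chr7:142650766-142666816. All are protein-coding genes but H19, which is annotated as a lincRNA.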

How the data were processed

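The authors deposited unnormalized counts (UMIs for each gene in each cell barcode). Per the file headers, the matrix of each library came from Cell Ranger 7.1.0. The submitters' processing notes name mm10, Cell Ranger and Seurat, and the labels' protocols a 10x 3' kit. Its gene annotation and its handling of intronic reads are not given in the sources. Barcodes (9707 and 9242) were kept with at least 500 UMIs, 250 genes and at most 20% mitochondrial UMIs. Scrublet (scanpy 1.11.5) called 263 and 273 doublets (2.74% and 2.98%, below the expected 7.69% and 7.34%), which were removed, leaving 9349 and 8901 cells with 77271800 and 73632447 UMIs. UMIs were summed per gate. With 1 library per genotype no test was made: CPM have exact 95% Poisson intervals, shares exact Clopper-Pearson intervals, and log2 ratios add 10 CPM. Genes with at least 20 UMIs over both sides were counted as past 2-fold at a log2 ratio of at least 1 in size. Thinning drew 1000 UMIs per cell without replacement. The steps were tested on simulated data. Alternatives covered the filters, gates, depth, scale and pseudocount. The members and all lists were chosen with earlier results of these data known. The text names every member, for each member the 3 genes with the highest likeness of at least 0.3, of each other list up to 4 genes with the largest ratio, and Zhx2, Zbtb20, Igf1r, Igf2r, Igf2bp3 and Dlk1. A factor of the fetal program and a gene like Tff3 that the rule takes are not reported here. Other genes were named after their values were seen, where a result turned on them. Scripts ran in Python 3.11.15 with matplotlib 3.10.9, pandas 2.3.3, scipy 1.17.1 and numpy 2.4.6.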

Additional observations from a re-analysis of the deposited data

Results flagged for a closer look

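Ly6d and Akr1c18 differed between keratin-high and keratin-low hepatocyte-gate cells in opposite directions in the libraries. For Ly6d the log2 ratio was -1.23 in the library labelled Crtc2+/+ (169 and 410 CPM) and 3.27 in the library labelled Crtc2-/- (2868 and 289 CPM), a difference of 4.49. For Akr1c18 it was -2.28 (3.83 and 57.1 CPM) and 1.32 (591 and 230 CPM), a difference of 3.60. The -2.28 rested on 8 UMIs in 7 keratin-high cells and 22 UMIs in 13 keratin-low cells. Under alternative processing it was as weak as -0.26, and the 1.32 was under 2-fold in 5 of 15 alternatives. The -1.23 of Ly6d was likewise under 2-fold in 5 of 15. With 1 library per genotype neither difference was tested. Keratin-low cells carried more macrophage RNA (7898 and 3360 CPM of its markers) and fewer UMIs (medians of 2013 and 2965) than keratin-high cells. B cell markers were also higher in keratin-low than in keratin-high cells, at 106 and 383 CPM in the keratin-low ones. Cells with B cell genes held 47.3% and 40.3% of all Ly6d UMIs. The part of depth, of macrophage RNA and of B cell RNA was not tested.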

How the results depend on the processing

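No paired analysis was possible because there was 1 library per genotype. The count of members past 2-fold between libraries in keratin-high cells stayed within 1.5 times its value under all alternatives. In keratin-low cells it was 1 with only cells of at least 5000 UMIs. Keratin-high over keratin-low, in the library labelled Crtc2+/+, it was 3 with a mitochondrial limit of 10%, with a hepatocyte gate of 50 UMIs, with keratin-high at 2 UMIs and at 4 per 10000 UMIs. In the library labelled Crtc2-/- it was 3 without macrophage-gate or T-gate cells, 3 without Ptprc-positive cells and 2 with the mean of per-cell CPM. There Gpc3 turned to -0.39 with a hepatocyte gate of 50 UMIs and to -0.86 with the mean of per-cell CPM. Biliary gate over keratin-high, without Ptprc-positive cells, 4 members were past 2-fold in the library labelled Crtc2-/-, Tspan8 turned to 0.44 there and Mdk to 0.034 in the library labelled Crtc2+/+. The cause of each was not tested. The share of keratin-high cells with at least 2 members was 89.3% in the library labelled Crtc2+/+ with a hepatocyte gate of 50 UMIs. Thinned to 1000 and 2000 UMIs it was 17.0% and 35.3% in that library and 63.1% and 81.1% in the other. The alternatives on keratin per 10000 UMIs, Ptprc, the top cell and 5000 UMIs were chosen after seeing the data. Of the single members' values, 684 kept their side of 2-fold, where signs of values under 2-fold were not compared, 36 fell below it and 21 rose past it. In 6, a value under 2-fold passed it with the other sign, and 4 values past 2-fold changed sign. Depth limits H19, Igf2 and, in 1 library each, Akr1c18, Afp and Mdk.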
